A study of Mus musculus with 8 samples.

Results

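The table of mouse gene counts was read here for 9 genes that control plasminogen and thrombin, namely *Plat*, *Plau*, *Plaur*, *Serpine2*, *F3*, *Tfpi*, *Thbd*, *Procr* and *F2r*. The genes were chosen by name with earlier results of these data known, and all 9 were found among the 54532 entries of the table. RNAseq was carried out on primary lung fibroblasts (pFBs) grown from minced lungs of female mice on a C57/black background. The 4 WT libraries came from mice without a transgene. The 4 HOMO libraries came from homozygous mice that carry human IGFBP5 (hIGFBP5) as a CRISPR/Cas9 knock-in under the elongation factor promoter Ef1a1, which is active in many cell types. Neither genotype received a treatment, and the age of the mice and the number of mice behind the libraries are not given in the sources used here. Where libraries of a genotype share a mouse, p-values measure the spread between libraries and not between mice. Libraries are called WT1 to WT4 and HOMO1 to HOMO4, and n counts libraries.

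Plasmin is the protease that dissolves fibrin and helps to clear matrix. It is made from plasminogen by tissue-type plasminogen activator (*Plat*) and by urokinase (*Plau*), which acts at the cell surface when bound to its receptor (*Plaur*). Thrombin forms after tissue factor (*F3*) starts coagulation, a step that tissue factor pathway inhibitor (*Tfpi*) blocks. Thrombin is then held in check by protease nexin 1 (*Serpine2*), a serpin that also inhibits plasminogen activators, and by thrombomodulin (*Thbd*), which turns thrombin towards activation of protein C with the help of the endothelial protein C receptor (*Procr*). Fibroblasts sense thrombin mainly through protease-activated receptor 1 (*F2r*). In the lung, fibrin turnover and thrombin signaling are both known from work on injury and fibrosis.

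Between 17236521 and 31987790 reads were counted per library. Levels are given as CPM, read counts brought to a common library size with TMM scaling (a correction for library composition). The lowest count of any of the 9 genes in a library was 202, which corresponds to a counting error of 7.04%, so that the spread between libraries and not depth limited these values. WT1 with WT2, HOMO1 with HOMO2 and HOMO3 with HOMO4 were near-identical (coefficients of variation of 4.71 to 7.65%, against 30.0 to 56.4% for the other 9 pairs within a genotype). The 7 markers of fibroblasts summed to 12241 to 22653 CPM per library, with the highest levels for *Col1a1*, *Col1a2* and *Vim*. Not all of them were abundant in each library, as *Lum* was at 4.07 CPM in WT3 and at 94.0 CPM in WT4. The 7 genes did not all move alike. *Pdgfrb* (−0.97, edgeR adjusted p = 0.0251) and *Vim* (−0.65, edgeR adjusted p = 0.0430) were called lower in HOMO on the log2 scale. *Col1a1* (0.82), *Col1a2* (0.66) and *Pdgfra* (0.12) were higher in HOMO and *Dcn* (−0.59) and *Lum* (−0.10) lower, all without a call. The 6 endothelial markers summed to 1.33 to 4.33 CPM, and *Pecam1* and *Cdh5* had at most 8 counts in any library. The 5 epithelial markers summed to at most 7.14 CPM, and *Cdh1* among them was called higher in HOMO (2.77, edgeR adjusted p = 0.0462). The 5 mesothelial markers summed to 51.7 to 155.1 CPM in WT and 92.1 to 130.5 CPM in HOMO, but not all moved alike. *Wt1* was called higher in HOMO (3.36, edgeR adjusted p = 0.0166), while *Krt19* stood at −3.06 (edgeR adjusted p = 0.0856) and was not called. The 6 macrophage markers summed to 109.9, 140.7, 1868 and 1097 CPM in WT1 to WT4 and to 24.2, 23.3, 133.8 and 155.6 CPM in HOMO1 to HOMO4, and none of the 6 was called. The 5 smooth muscle and pericyte markers summed to 831.2, 772.2, 2675 and 891.4 CPM in WT1 to WT4 and to 195.0, 201.0, 1438 and 1413 CPM in HOMO1 to HOMO4, and *Rgs5* was called lower in HOMO (−5.20, edgeR adjusted p = 0.0486). Fibroblast, endothelial, epithelial, macrophage and smooth muscle and pericyte sums were each higher in WT3 and WT4 than in WT1 and WT2. They were also higher in HOMO3 and HOMO4 than in HOMO1 and HOMO2, while mesothelial sums were so in WT only. Single markers did not all follow their sums. *Pdgfra* was lowest in WT4 among WT libraries (126.5 CPM). It was lower in HOMO3 and HOMO4 (225.3 and 248.1 CPM) than in HOMO1 and HOMO2 (295.2 and 282.7 CPM). *Cspg4* was also lowest in WT4 among WT libraries (0.696 CPM). Endothelial and epithelial sums rested on few reads, such as 17 of *Tek* and 14 of *Foxj1* in WT3. The part of these differences between cultures in the results on the 9 genes was not tested.

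HOMO was compared with WT by edgeR's quasi-likelihood test over 14150 genes, among them all 9 of these genes. Calls required both an adjusted p below 0.05 and a log2 difference of more than 0.6 in either direction, which are the thresholds of the study. Of the 9 genes, 2 were called, *Thbd* and *Plaur*, both downregulated in HOMO. Over all tested genes 12.1% were called, 5.94% higher and 6.18% lower in HOMO. With total counts in place of TMM, 60.8% of called genes were higher in HOMO instead of 49.0%, and the same 2 of the 9 genes were called. The 9 genes had a median log2 fold change of −0.71 against −0.04 over all tested genes, and 8 of the 9 were lower in HOMO, as were 52.7% of all tested genes. Levels of the genotypes did not overlap for 4 of the 9 genes (*Thbd*, *Plaur*, *Plau* and *Procr*, all lower in HOMO), against 27.3% of all tested genes. An unadjusted p under 0.05 was found for 5 of the 9 and for 32.3% of all tested genes.

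**Figure D1:**
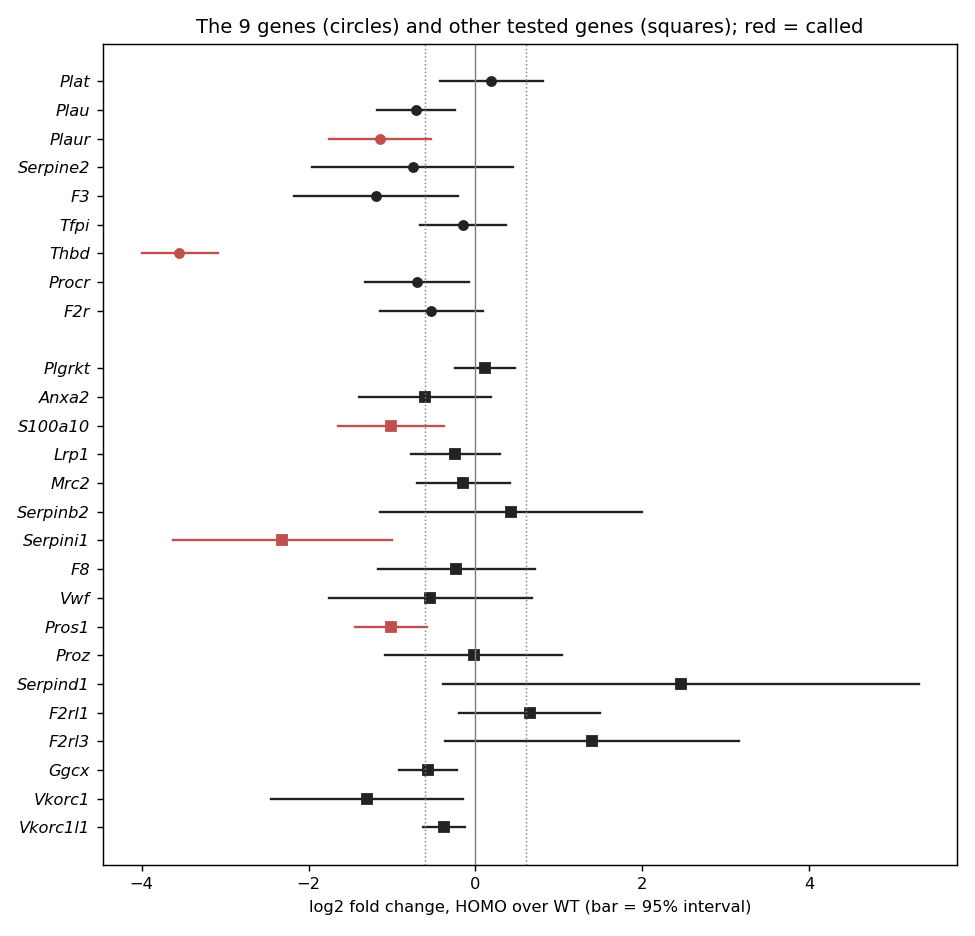
Log2 fold changes of HOMO over WT (x axis) for the 9 genes (circles) and for 17 other tested genes of plasminogen and thrombin control (squares), with 95% intervals as bars and dotted lines at the threshold of 0.6. *Thbd* stands apart at −3.55, and the called genes, in red, all lie to the left of the threshold.

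*Plat* and *Plau* encode the activators of plasminogen. *Plat* (chromosome 8 from 22757727 to 22782844) was counted at 202.4, 222.0, 398.2 and 169.1 CPM in WT1 to WT4 and at 326.6, 323.3, 230.3 and 249.7 CPM in HOMO1 to HOMO4. WT3 held the highest and WT4 the lowest level, and the genotypes overlapped. The log2 fold change was 0.19 with a standard error of 0.27 (edgeR adjusted p = 0.671), and the 95% interval from −0.43 to 0.81 includes changes past the threshold in the upward direction. The median log2 fold change of chromosome 8 was 0.38, and relative to its chromosome *Plat* came to −0.19. The estimate ranged from 0.04 without WT4 to 0.51 without WT3, and no alternative called it. Among all 9 genes, *Plat* alone had a fold change above 0.

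*Plau* (chromosome 14 from 20836660 to 20843385) was found at 32.8, 32.9, 56.1 and 37.2 CPM in WT1 to WT4 and at 28.1, 23.0, 21.1 and 24.8 CPM in HOMO1 to HOMO4. All HOMO libraries were below all WT libraries, and WT3 was again the highest. Means were 39.7 CPM in WT (SD 11.1, n = 4) and 24.2 CPM in HOMO (SD 2.98, n = 4), and the difference of −0.71 on the log2 scale (standard error 0.20) missed the call at an edgeR adjusted p of 0.0519. With RLE scaling, which moved the adjusted p to 0.0497, and with DESeq2 (adjusted p = 0.0229) *Plau* was called. Without WT3 the difference was −0.50, under the fold threshold, at an adjusted p of 0.0360, and without WT3 and WT4 it was −0.44. When a HOMO library was left out, the edgeR adjusted p was between 0.103 and 0.149. It was 0.136 with the replicate number as a block and 0.386 with near-identical libraries summed.

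*Plaur*, the receptor that holds urokinase at the cell surface, fell by 1.14 on the log2 scale (standard error 0.27, edgeR adjusted p = 0.0298), so that it was 2.21-fold lower in HOMO. The gene lies on chromosome 7 from 24462484 to 24475968. Levels were 50.1, 44.2, 50.6 and 71.7 CPM in WT1 to WT4 and 17.2, 17.4, 34.1 and 29.6 CPM in HOMO1 to HOMO4. The genotypes did not overlap, and HOMO1 and HOMO2 were lower than HOMO3 and HOMO4. Within each genotype the 2 highest libraries, WT3 and WT4 as well as HOMO3 and HOMO4, were those with more macrophage marker counts, although WT3 exceeded WT1 only slightly. Fibroblast, endothelial, epithelial and smooth muscle and pericyte marker sums were higher in these libraries too, but not every single marker was. The part of macrophages or other cells in the result on *Plaur* was not tested. In cultures measured in bulk, fewer cells that express a gene and less RNA per cell cannot be told apart. Genes of chromosome 7 had a median log2 fold change of −0.29, and relative to it *Plaur* came to −0.85. EdgeR adjusted p-values were 0.0505 without WT4, 0.0927 without HOMO1, 0.0940 without HOMO2, 0.0537 without HOMO4 and 0.0536 without WT3 and WT4, each of which ends the call, with log2 fold changes from −1.22 to −0.94.

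*Serpine2*, the inhibitor of thrombin and of plasminogen activators, was the most variable of the 9 genes among WT libraries. The gene is on chromosome 1 from 79794197 to 79861180, and levels of 15.0, 14.6, 76.4 and 44.3 CPM were found in WT1 to WT4 and of 17.1, 16.2, 26.7 and 29.1 CPM in HOMO1 to HOMO4. The WT libraries enclosed all HOMO libraries and spanned a 5.24-fold range. No difference was called (log2 fold change −0.75, standard error 0.53, edgeR adjusted p = 0.358), and the direction depended on the libraries. It was −0.15 without WT3. Without WT3 and WT4, which held the highest macrophage marker sums, the log2 fold change was 0.59 (edgeR adjusted p = 0.144), and in limma-voom with sample weights *Serpine2* was called at 0.62 (adjusted p = 0.0476). The 2 libraries of each genotype with more *Serpine2* were those with more macrophage marker counts. Their fibroblast, endothelial, epithelial and smooth muscle and pericyte marker sums were higher too, but not every single marker was. The part of macrophages or other cells in this was not tested.

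*F3*, which encodes tissue factor, showed the same division among WT libraries. It is located on chromosome 3 from 121723537 to 121735048, and was counted at 225.0, 260.7, 752.0 and 747.2 CPM in WT1 to WT4 and at 163.7, 167.2, 266.7 and 270.3 CPM in HOMO1 to HOMO4. WT3 and WT4 were far above the other 6 libraries, while WT1 and WT2 lay below HOMO3 and HOMO4. The mean was 496.2 CPM in WT (SD 292.9, n = 4) and 217.0 CPM in HOMO (SD 59.5, n = 4), a difference of −1.19 on the log2 scale with a standard error of 0.44 that was not called (edgeR adjusted p = 0.0999). DESeq2 called it (adjusted p = 0.0395). Without WT3 and WT4 the log2 fold change was −0.16 (edgeR adjusted p = 0.634), a setting that leaves the near-identical WT1 and WT2 as the WT group. Chromosome 3 had a median of −0.23, and its genes stood 0.37 higher in WT3 than in the other WT libraries. Here too the libraries with more *F3* within each genotype were those with more macrophage marker counts. Their fibroblast, endothelial, epithelial and smooth muscle and pericyte marker sums were higher as well, but not every single marker was. The part of macrophages or other cells was not tested.

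*Tfpi*, the inhibitor of the tissue factor complex, lies on chromosome 2 from 84432855 to 84476775. Its levels were 142.3, 147.2, 269.0 and 209.8 CPM in WT1 to WT4 and 191.6, 197.5, 148.3 and 157.3 CPM in HOMO1 to HOMO4. All HOMO libraries fell inside the WT range. The log2 fold change of −0.15 (standard error 0.22, 95% interval −0.66 to 0.37, edgeR adjusted p = 0.689) was the smallest of the 9 and turned to 0.26 without WT3 and WT4 and to 0.06 without WT3 alone.

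**Figure D2:**
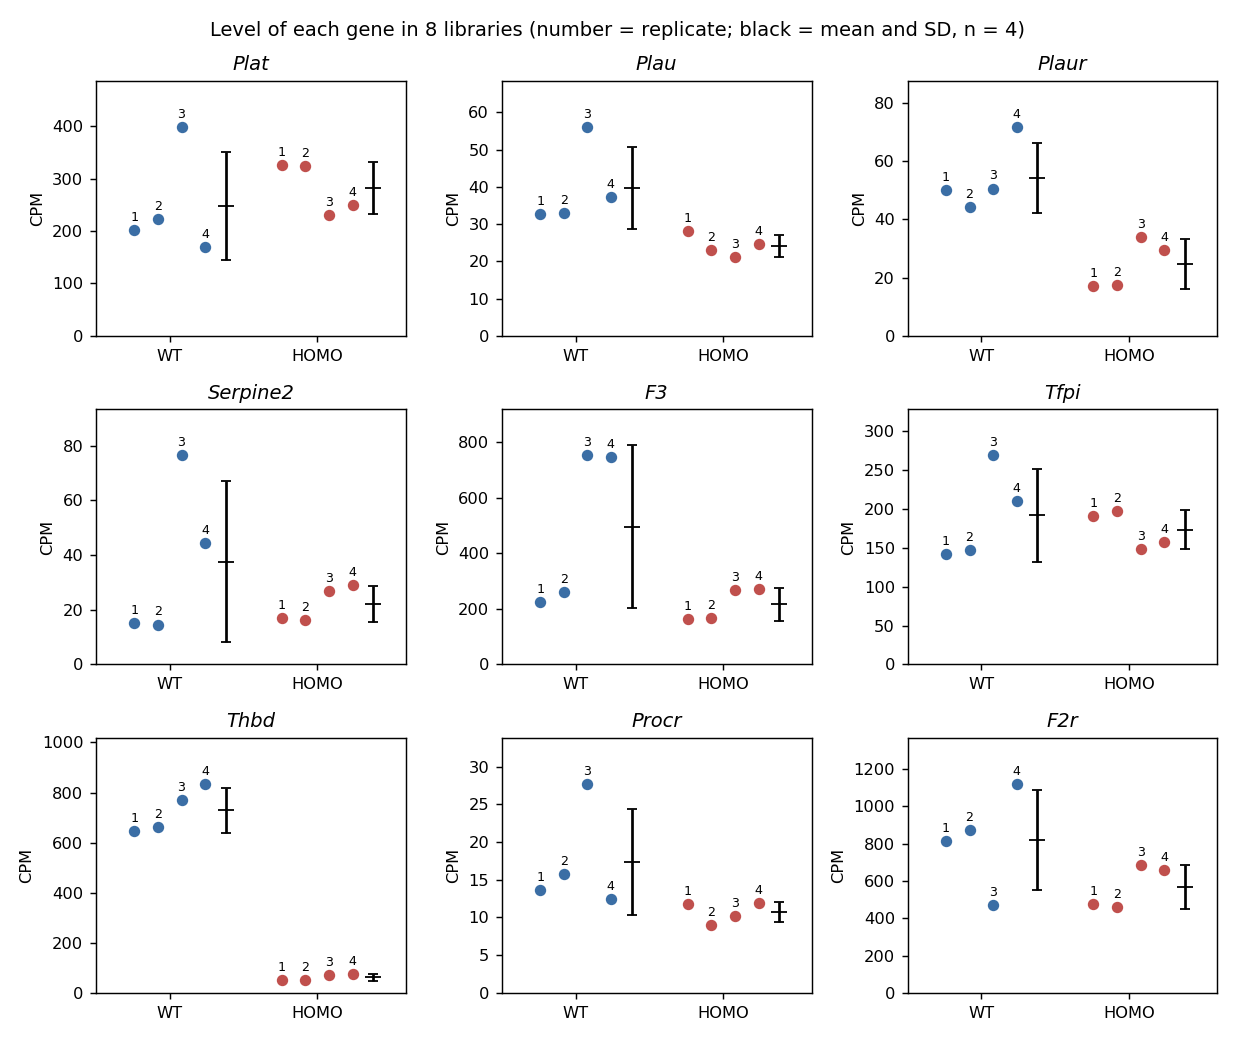
Levels in CPM (y axes, from 0) of the 9 genes in the 4 WT (blue) and 4 HOMO (red) libraries, with replicate numbers above the points and the mean and SD of each genotype in black. *Thbd* is parted by a wide gap between the genotypes, *Plaur*, *Plau* and *Procr* by narrow ones, and the other 5 genes overlap.

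*Thbd*, which encodes thrombomodulin, was 11.7-fold lower in HOMO, the largest difference among the 9 genes, and had the third-lowest p of all 14150 tested genes. It is a gene of 1 exon on chromosome 2 from 148404466 to 148408188. WT1 to WT4 held 647.2, 661.5, 771.7 and 834.2 CPM, and HOMO1 to HOMO4 held 51.0, 51.7, 70.2 and 76.6 CPM. Levels spanned a 1.29-fold range in WT and a 1.5-fold range in HOMO, and the lowest WT library was far above the highest HOMO library. The log2 fold change of −3.55 had a standard error of 0.20 and a 95% interval of −4.00 to −3.09 (edgeR adjusted p = 1.41e-04). *Thbd* was called without each library in turn and without WT3 and WT4 (−3.39, edgeR adjusted p = 2.02e-04). Leaving out WT1, WT2 or a HOMO library keeps its near-identical partner, and without WT3 and WT4 the WT group is WT1 and WT2 only. With near-identical libraries summed the call was lost (edgeR adjusted p = 0.108). As for *Serpine2* and *F3*, the higher libraries were WT3 and WT4 in WT and HOMO3 and HOMO4 in HOMO. These had more macrophage marker counts (1868 and 1097 CPM in WT3 and WT4, 109.9 and 140.7 CPM in WT1 and WT2). Their fibroblast, endothelial, epithelial and smooth muscle and pericyte marker sums were higher as well, but not every single marker was. The part of macrophages or other cells in the result was not tested.

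**Figure D3:**
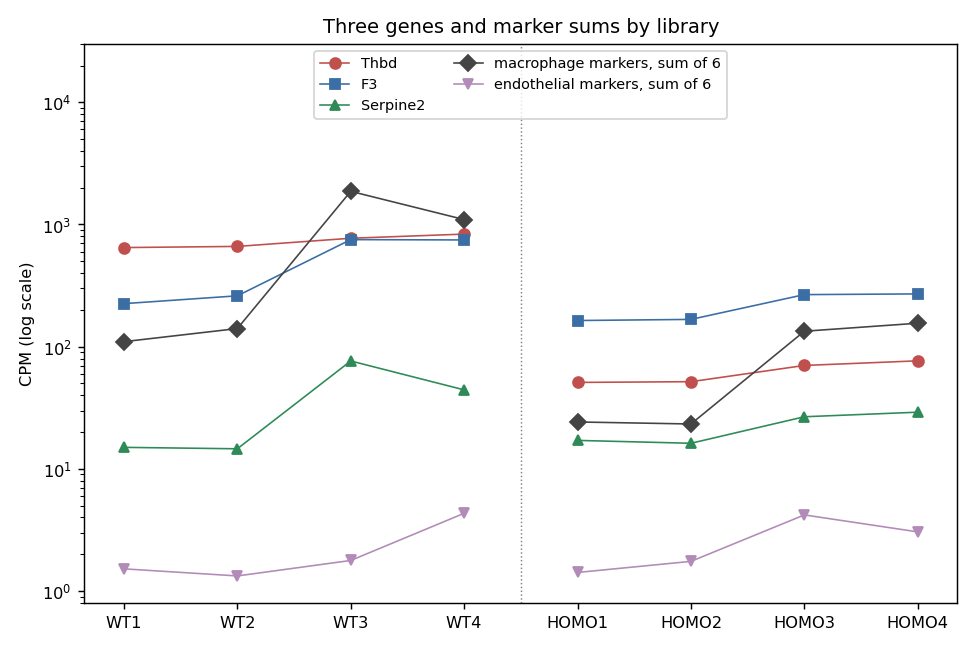
Levels of *Thbd*, *F3* and *Serpine2* and summed levels of 6 macrophage and 6 endothelial markers in each library (y axis, CPM on a log scale; the dotted line parts WT from HOMO, and lines only join the libraries of a genotype). *F3*, *Serpine2*, *Thbd* and the macrophage and endothelial sums are all higher in WT3 and WT4 than in WT1 and WT2. All are also higher in HOMO3 and HOMO4 than in HOMO1 and HOMO2, with the smallest spread within a genotype for *Thbd*.

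*Procr*, the receptor that presents protein C to thrombomodulin, was a weakly expressed gene (chromosome 2 from 155751117 to 155755471). It was counted at 13.7, 15.8, 27.7 and 12.4 CPM in WT1 to WT4 and at 11.8, 9.01, 10.2 and 11.9 CPM in HOMO1 to HOMO4. The genotypes were parted only by the narrow gap between WT4 and HOMO4, and WT3 was the highest. The log2 fold change of −0.70 (standard error 0.27) was not called (edgeR adjusted p = 0.119) and came to −0.38 without WT3 (edgeR adjusted p = 0.140).

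*F2r*, the thrombin receptor, had the highest mean level per length of the 9 genes and lies on chromosome 13 from 95601803 to 95618487. Levels were 813.1, 873.0, 472.8 and 1120 CPM in WT1 to WT4 and 475.3, 460.2, 685.7 and 657.3 CPM in HOMO1 to HOMO4. WT3, highest of the WT libraries for *Plat*, *Plau*, *Serpine2*, *F3*, *Tfpi* and *Procr*, was the lowest for *F2r* and lay between HOMO1 and HOMO2. The log2 fold change was −0.53 with a standard error of 0.27 (95% interval −1.14 to 0.09, edgeR adjusted p = 0.215). Without WT3 it was −0.72 at an edgeR adjusted p of 0.0419, which is a call, and without WT4 it was −0.34.

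Levels of different genes were compared as RPKM, the CPM divided by the length of all annotated exons in kilobases. In WT the order by mean was *F2r* (245.7), *F3* (196.4), *Thbd* (195.7), *Plat* (39.7), *Tfpi* (35.2), *Plaur* (20.7), *Plau* (16.8), *Procr* (8.57) and *Serpine2* (4.53). The first 3 overlapped one another in turn, as did *Plat* with *Tfpi*, *Tfpi* with *Plaur*, *Plaur* with *Plau*, and *Procr* with *Serpine2*. In HOMO the order was *F2r* (170.8), *F3* (85.9), *Plat* (45.3), *Tfpi* (31.8), *Thbd* (16.8), *Plau* (10.2), *Plaur* (9.39), *Procr* (5.29) and *Serpine2* (2.69), and of neighbours in that order only *Plau* and *Plaur* overlapped. *Thbd* ranked 2, 2, 2 and 3 among the 9 genes in WT1 to WT4 and 5 in each HOMO library. *Serpine2* ranked 9 and *Procr* 8 in all 8 libraries. Lengths cover the exons of all annotated transcripts, so that a gene read mainly from a short transcript has too low an RPKM.

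Ratios within a library do not depend on scaling between libraries. *Thbd* over *F3*, thrombomodulin against tissue factor, was 1.95, 1.72, 0.697 and 0.758 in WT1 to WT4 and 0.212, 0.210, 0.179 and 0.192 in HOMO1 to HOMO4, on the RPKM scale. Every HOMO library was below every WT library in this ratio, although *F3* itself overlapped. *Thbd* over *Procr* was between 15.2 and 36.7 in WT and between 2.35 and 3.75 in HOMO. *Plat* over *Plau* was between 1.72 and 2.69 in WT and between 3.82 and 5.34 in HOMO, also without overlap, so that tissue-type activator transcripts exceeded those of urokinase in all 8 libraries and by more in HOMO. *F3* over *Tfpi* (3.42 to 7.70 in WT, 1.83 to 3.89 in HOMO), *Plau* over *Plaur* (0.574 to 1.23 and 0.684 to 1.81) and *Plat* over *Serpine2* (5.07 to 20.2 and 11.4 to 26.5) overlapped. These 6 ratios were picked with the levels known and were not tested.

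**Figure D4:**
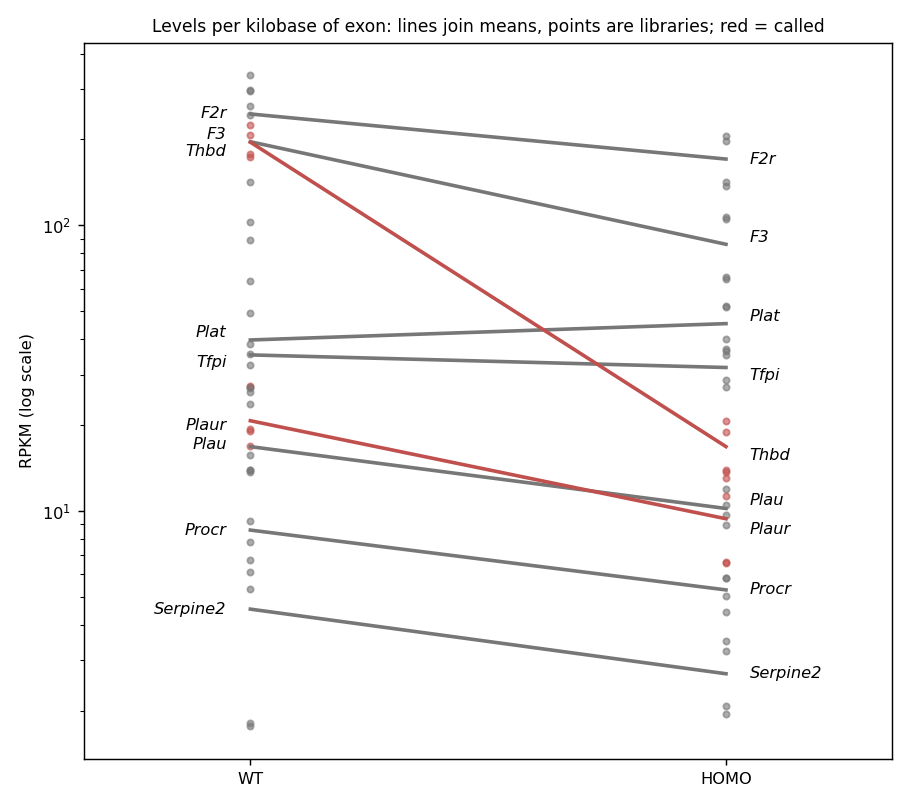
RPKM (y axis, log scale) of the 9 genes in WT and HOMO, with points for libraries, lines that join the means, and called genes in red. *Thbd* drops from the top 3 genes (195.7) to the fifth place (16.8), below *Plat* and *Tfpi*, while most other lines keep their order.

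Promoter windows from RefSeq (GRCm38.p6, the build also called mm10) were at hand for 6 of the 9 genes, from 250 bases before to 50 bases after the start of transcription. None was at hand for *Thbd*, *Plat* and *Plau*, so that their promoters were not searched. The windows were searched on both strands for the TATA box TATAAA, the Sp1 box GGGCGG, the AP-1-like motif TGANTCA and the EGR motif GCGNGGGCG. N stands for any base, so that TGAATCA and TGAGTCA in *F3* both count. The EGR motif can overlap the Sp1 box. The 6 genes have 7 windows, 2 of them of *Tfpi*. TGANTCA was found in 4 of the 7 windows, those of *F3*, *Plaur*, *Procr* and *F2r*, against 7.81% of 32851 windows of the same length. These 4 are shown because they share it. It began at −146 and −135 in *F3*, −69 in *Plaur*, −154 in *Procr* and −204 in *F2r*, counted from the start. GGGCGG was in 35.7% of all windows and in those of *F3*, *Plaur*, *F2r* and *Serpine2* and both of *Tfpi*. GCGNGGGCG was in 5.55% of all windows and in *Plaur* and *Serpine2*. TATAAA was in 13.6% of all windows and in *F3* and *Tfpi*, on the opposite strand in both. Matches are runs of letters and not shown sites of binding. Motif letters are in capitals in the sequences, which are those of *F3* (chr3:121723287-121723586, plus strand), *Plaur* (chr7:24462233-24462532, plus strand), *Procr* (chr2:155750967-155751266, plus strand) and *F2r* (chr13:95618417-95618716, minus strand).
F3: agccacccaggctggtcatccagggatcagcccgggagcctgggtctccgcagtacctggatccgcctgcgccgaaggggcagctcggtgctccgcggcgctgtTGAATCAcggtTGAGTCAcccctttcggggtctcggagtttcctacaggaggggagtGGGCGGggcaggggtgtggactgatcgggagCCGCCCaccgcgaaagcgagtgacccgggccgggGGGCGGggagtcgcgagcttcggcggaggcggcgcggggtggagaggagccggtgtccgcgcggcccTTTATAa
Plaur: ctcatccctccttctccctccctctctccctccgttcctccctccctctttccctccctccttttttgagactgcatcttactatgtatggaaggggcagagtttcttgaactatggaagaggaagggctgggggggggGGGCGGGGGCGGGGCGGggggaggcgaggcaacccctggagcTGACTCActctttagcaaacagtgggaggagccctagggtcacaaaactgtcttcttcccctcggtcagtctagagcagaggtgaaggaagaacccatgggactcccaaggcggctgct
Procr: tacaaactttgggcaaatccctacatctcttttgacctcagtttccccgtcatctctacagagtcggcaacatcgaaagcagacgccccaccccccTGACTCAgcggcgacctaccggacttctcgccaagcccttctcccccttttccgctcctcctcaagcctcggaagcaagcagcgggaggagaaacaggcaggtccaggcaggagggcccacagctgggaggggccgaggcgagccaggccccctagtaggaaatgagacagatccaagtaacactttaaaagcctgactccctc
F2r: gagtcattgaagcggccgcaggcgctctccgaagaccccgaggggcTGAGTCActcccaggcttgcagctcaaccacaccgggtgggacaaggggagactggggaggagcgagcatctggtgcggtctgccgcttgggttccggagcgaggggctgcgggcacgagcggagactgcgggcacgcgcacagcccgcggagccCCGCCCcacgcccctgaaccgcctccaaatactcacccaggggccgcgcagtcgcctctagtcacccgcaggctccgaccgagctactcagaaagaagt
Of these 4 genes *Plaur* was called, and the 4 differed in how their levels ran across WT libraries, with WT3 and WT4 high for *F3*, WT4 for *Plaur*, WT3 for *Procr*, and WT3 low for *F2r*.

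A list of 42 further genes of the same system was read from the table, and 34 of them had counts. The other 8, which include plasminogen itself (*Plg*), factor XII (*F12*), factor X (*F10*) and all 3 fibrinogen chains (*Fga*, *Fgb* and *Fgg*), had 0 counts in all 8 libraries, which allows up to 0.0907 to 0.172 CPM per library. Prothrombin (*F2*) had 2 counts in all. Of the 42 genes 17 were tested and 3 were called, all lower in HOMO (17.6%, against 12.1% of all tested genes), with a median log2 fold change of −0.24 over the 17. In the plasminogen system 2 of 7 tested genes were called, among inhibitors and the protein C pathway 1 of 3, and among coagulation factors (2 tested), protease-activated receptors (2) and enzymes of vitamin K dependent carboxylation (3) none was called, while 3 of these 7 genes, all of carboxylation, had an unadjusted p under 0.05. Over the 17 genes 6 had an unadjusted edgeR p under 0.05, against 32.3% of all tested genes.

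*Pros1*, which encodes protein S, the cofactor of activated protein C, fell by 1.01 on the log2 scale (standard error 0.19, edgeR adjusted p = 0.0134). WT1 to WT4 held 194.3, 226.1, 254.7 and 137.1 CPM and HOMO1 to HOMO4 held 103.4, 98.0, 94.5 and 106.7 CPM. Without HOMO1 or HOMO2 the adjusted p was 0.0528 and 0.0566, which ends the call. *S100a10*, the partner of annexin A2 in a plasminogen receptor on the cell surface, changed by −1.01 (standard error 0.28, edgeR adjusted p = 0.0462). It was found at 115.6, 109.5, 211.2 and 113.0 CPM in WT1 to WT4 and at 50.8, 52.8, 85.2 and 83.5 CPM in HOMO1 to HOMO4, and the call was lost without any library but WT3, with adjusted p-values from 0.0513 to 0.139. With upper-quartile scaling or total counts it was lost as well (edgeR adjusted p = 0.0539 and 0.0579). *Serpini1*, neuroserpin, an inhibitor of tissue-type activator, changed by −2.32 (standard error 0.58, edgeR adjusted p = 0.0344) at a low level, 3.43 to 8.88 CPM in WT and 0.445 to 2.08 CPM in HOMO, and the call was lost without WT2, HOMO1, HOMO2 or HOMO4 (edgeR adjusted p from 0.0552 to 0.101). Without WT3 and WT4 *S100a10* and *Serpini1* were not called (edgeR adjusted p = 0.0584 and 0.0607). All 3 genes were without overlap between the genotypes, as were 5 of the 17 tested further genes in all (29.4%, against 27.3% of all tested genes).

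Of the tested genes without a call, the 5 with the highest levels were the clearance receptor *Lrp1*, the collagen receptor *Mrc2*, which binds the urokinase receptor, annexin A2 (*Anxa2*), and the carboxylation genes *Vkorc1l1* and *Ggcx*. *Lrp1*, which takes up complexes of proteases and serpins, averaged 2286 CPM in WT (SD 661.3, n = 4) and 1932 CPM in HOMO (SD 116.2), with a 95% interval of the log2 fold change from −0.77 to 0.29. The interval was −1.39 to 0.19 for *Anxa2* and −0.70 to 0.41 for *Mrc2*. *Ggcx*, the carboxylase that proteins C and S depend on, had an adjusted p of 0.0426 with a log2 fold change of −0.57, just under the fold threshold, and *Vkorc1l1* one of −0.38 (edgeR adjusted p = 0.0593). Both were without overlap, from 56.9 to 72.9 CPM in WT and 36.3 to 49.5 CPM in HOMO for *Ggcx*.

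The calls rest on treating the near-identical libraries as separate samples. When their counts were summed, which leaves 3 WT and 2 HOMO units, no gene of the 16130 tested was called (0%), 4 of the 9 genes and 2057 of all genes had an unadjusted p under 0.05, and *Thbd* had an adjusted p of 0.108 at a log2 fold change of −3.58. DESeq2, the tool of the study, called 4 of the 9 genes, *Thbd*, *Plaur*, *Plau* and *F3*, all lower in HOMO, at 16.5% of its tested genes.

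**Figure D5:**
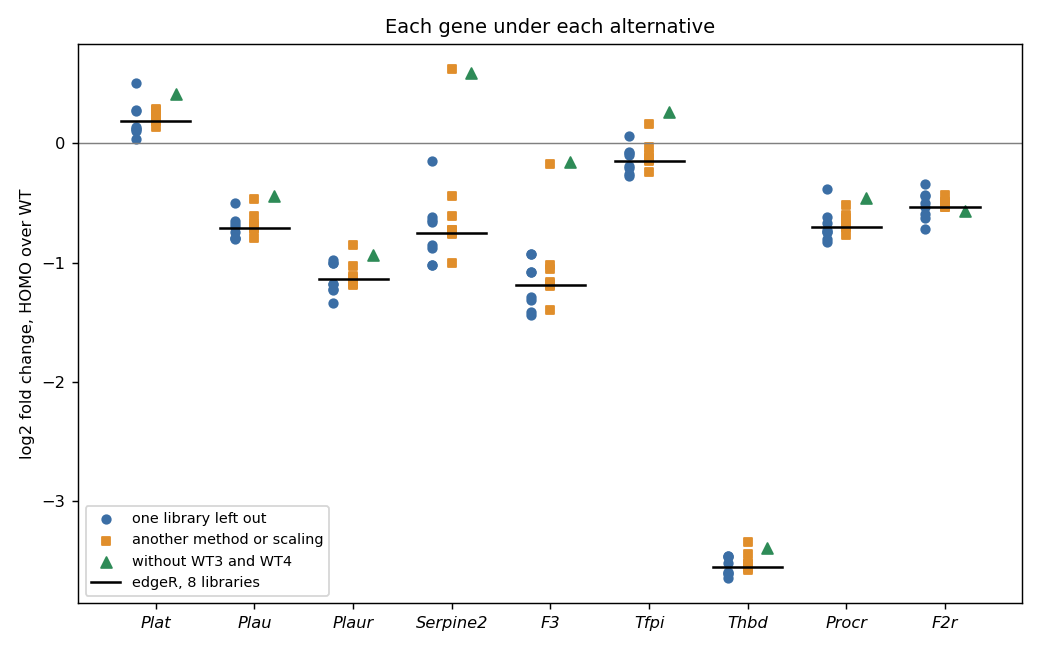
Log2 fold changes of the 9 genes (y axis) in edgeR with 8 libraries (black bars), with 1 library left out (blue), with another method or scaling (orange) and without WT3 and WT4 (green). *Thbd* stays between −3.64 and −3.34, *F3* comes close to 0 in 2 settings, and *Serpine2* and *Tfpi* cross 0.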

How the data were processed

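The authors filtered the reads with fastp, aligned them to mm10 with STAR and obtained read counts per gene with featureCounts, and deposited these raw counts without normalization. Whether counting used strand, and what the label "outlierout" of the table refers to, is not given in the sources used here. Exons of the 9 genes overlap no other gene in GENCODE M21 (GRCm38), which gave positions and lengths. All 8 libraries were used, 4 WT and 4 HOMO, grouped by their titles, and 0 columns were left aside.

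The fit used edgeR 4.0.16 in R 4.3.3 (filterByExpr, TMM, quasi-likelihood F test, two-sided, Benjamini-Hochberg over 14150 genes), with limma 3.58.1 and DESeq2 1.42.0 as alternatives. Figures were drawn with Python 3.11.15 and matplotlib 3.10.9. Each standard error is the size of the estimate over the root of its F statistic. For genes outside the fit an exact permutation test (two-sided) was run over all 70 assignments of libraries. The fit was tested on simulated data, with all 8 libraries drawn as independent samples. The simulation held no near-identical libraries, so that it cannot give the rate of false calls in these data. Alternatives were other scalings, no filter, DESeq2, limma-voom with sample weights, the replicate number as a block, no fold threshold, summed near-identical libraries and each library left out; leaving out WT3 and WT4 was added after the data were seen.

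The members and lists were chosen with earlier results of these data known. Of the 42 further genes, all called genes and the 5 most abundant tested ones without a call are named; the genes at 0 counts and *F2* were named after their values were seen. Some genes of the system are not reported here, and the human transgene was not analysed here.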

Additional observations from a re-analysis of the deposited data

Results flagged for a closer look

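In 2 of 34 groups of 4 libraries, 1 library stood apart from the other 3 by Dixon's criterion, where chance sets apart about 1 in 20. *S100a10* reached 7.72 log2 CPM in WT3, while WT1, WT2 and WT4 lay between 6.78 and 6.85. *Vkorc1l1* was lowest in HOMO2 with 5.57 log2 CPM, and the remaining HOMO libraries had 5.70 to 5.72. Neither is one of the 9 genes.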

How the results depend on the processing

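Of the 9 genes, 2 were called in edgeR with 8 libraries (12.1% of all tested genes) and 4 in DESeq2 (16.5%). Without WT3 and WT4, 1 was called, at 3117 of 14912 genes over all. With near-identical libraries summed 0 were called. When each library was left out 1 to 3 were called, at 507 to 2192 genes over all. Of the 42 further genes 17 were tested and 3 called. In limma-voom with sample weights 5 of 17 were called, against 3573 of 14150 genes over all. With near-identical libraries summed 0 of 19 tested were called. There 4 had an unadjusted p under 0.05, against 2057 of 16130 genes over all. When each library was left out 0 to 4 were called. With summing, no gene was called at all, and fewer units were compared. The other alternatives gave 2 or 3 of the 9 genes and 2 to 4 of the further genes. *Thbd* was called in 16 of 17 alternatives and *Plaur* in 11. Directions turned for *Serpine2* in limma-voom (0.62) and without WT3 and WT4 (0.59), for *Tfpi* in limma-voom (0.16), without WT3 (0.06) and without WT3 and WT4 (0.26), and for *Mrc2* in the same 3 settings (0.06, 0.14 and 0.17); the cause was not tested. With each library left out, *Tfpi* ran from −0.27 to 0.06 and *Mrc2* from −0.26 to 0.14.

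Same-numbered WT and HOMO libraries did not deviate together (r across genes between −0.12 and 0.01, and no WT library matched its own number best), so that the numbers were not taken as pairs. With the replicate block 2 of the 9 genes and 2 of the further genes were called, at 947 calls in all against 1716. Calls over all genes also differed in DESeq2 (2913), limma-voom with sample weights (3573), without WT3 and WT4 (3117) and without HOMO1, HOMO2, HOMO3 or HOMO4 (507, 512, 1040 and 980).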

Other observations

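Some further genes were named after their values were seen. *Serpind1*, heparin cofactor II, a thrombin inhibitor, was counted at 0, 0.171, 3.15 and 3.98 CPM in WT1 to WT4 and at 17.8, 17.8, 3.04 and 1.75 CPM in HOMO1 to HOMO4, so that HOMO1 and HOMO2 stood apart from all other libraries, and the difference of 2.46 on the log2 scale had a standard error of 1.26 and was not called (edgeR adjusted p = 0.211). *F13a1*, the chain of factor XIII that cross-links fibrin, was outside the fit, with 9, 9, 2 and 10 reads in the WT libraries by number against 2, 0, 1 and 2 in HOMO (two-sided exact permutation p = 0.0286, the smallest that 8 libraries allow). This was the lowest p among the further genes with counts outside the fit, and it was not adjusted for their number. The test treats near-identical libraries as separate samples. *Tfpi2* was read 21, 27, 6 and 0 times in WT and at most 2 times in a HOMO library (two-sided exact permutation p = 0.143).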
